A study of Mus musculus with 6 samples.

Results

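Zfp36, Zfp36l1, Zfp36l2, Zc3h12a, Rc3h1, Rc3h2, Btg1 and Btg2 encode proteins that shorten the life of messenger RNAs or hold back proliferation, and all 8 act as brakes on T cells. They were taken by symbol from a count table of 23505 gene rows, and all 8 had a row of their own and passed the filter on low counts. The cells sequenced were CD4+ T cells of wild type mice, sorted from liver by the gate CD3+, NK1.1-, CD4+ and CD8-. The ConA+SIM group (3 libraries) came from mice gavaged with simvastatin, a statin that blocks cholesterol synthesis, at 30 mg/kg. The ConA group (3 libraries) came from mice gavaged with phosphate-buffered saline. All mice were injected with concanavalin A, a lectin that drives T cell activation and immune hepatitis. Gavage was daily over the 5 days leading up to this injection, with doses 1 h ahead of it and 24 h afterwards. Both groups thus carry the injury, and no uninjected mice were analysed here. The sources used here do not give age, sex or strain. The series title names T cell activation and the calcium-NFATC3 pathway, and the contrast addresses what simvastatin changed in these cells.

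Decay of a messenger RNA usually starts with removal of its poly(A) tail by the CCR4-NOT deadenylase complex, after which the cap is taken off and the body is digested from either end. Zfp36 (tristetraprolin) and its relatives Zfp36l1 and Zfp36l2 bind AU-rich elements in 3' untranslated regions and bring CCR4-NOT to them, and in mouse T cells they restrain cytokine production and activation. Zc3h12a (Regnase-1) is an endonuclease that cuts messages at stem-loops, and Rc3h1 and Rc3h2 (Roquin-1 and Roquin-2) bind related stem-loops and recruit the deadenylase, among others on the costimulator messages Icos and Tnfrsf4. Btg1 and Btg2 bind the catalytic deadenylase subunits Cnot7 and Cnot8 and have been tied to the quiescence of naive mouse T cells. Zfp36 and Btg2 are also known as immediate early genes, which are transcribed within minutes of a stimulus.

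Many of these regulators carry the element that tristetraprolin itself binds, and Zfp36 is known to limit its own message in this way. The AU-rich heptamer TATTTAT was searched on the sense strand of the 3' untranslated region of the longest coding transcript of each gene (GENCODE release M21, GRCm38). It was found in 6 of the 8 genes, against 27.3% of 21058 genes with a 3' untranslated region. The nonamer TTATTTATT, which contains the heptamer, was found in 5 of the 8, against 7.54% of the same genes. The median 3' untranslated region of those genes was 935 bases, and all members but Zfp36 and Zc3h12a had longer ones. Neither comparison was adjusted for length. Zfp36 held 3 heptamers within 47 bases of a 3' untranslated region of only 774 bases, whereas the 3 of Zfp36l1 lay within 262 bases and the 3 of Zfp36l2 within 241 bases, in 3' untranslated regions of 1835 and 1822 bases. The sites of this family and the single site of Btg2 are shown, since the family encodes proteins that bind the element and Btg2 is, like Zfp36, an immediate early gene. Capitals mark the heptamer.
Zfp36 site a, chr7:28376969-28376991, minus strand: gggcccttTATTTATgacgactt
Zfp36 site b, chr7:28376954-28376976, minus strand: gacgacttTATTTATtgtattaa
Zfp36 site c, chr7:28376929-28376951, minus strand: ttttatagTATTTATatatattg
Zfp36l1 site a, chr12:80108425-80108447, minus strand: tcaaaacgTATTTATtgccaaac
Zfp36l1 site b, chr12:80108384-80108406, minus strand: tttgttcaTATTTATcgggatga
Zfp36l1 site c, chr12:80108170-80108192, minus strand: tgttggatTATTTATtttagaaa
Zfp36l2 site a, chr17:84184917-84184939, minus strand: atttaactTATTTATtatcttgt
Zfp36l2 site b, chr17:84184869-84184891, minus strand: ccatactgTATTTATcgagtatg
Zfp36l2 site c, chr17:84184683-84184705, minus strand: gtatgtaaTATTTATttcattaa
Btg2 site, chr1:134077252-134077274, minus strand: tgaagagcTATTTATacatgttt
Rc3h1 held 2 heptamers and Rc3h2 held 3, in much longer 3' untranslated regions of 7181 and 5331 bases. Btg1 and Zc3h12a had no match. A match is a description of the letters and not a measured binding site.

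The promoters of the immediate early members carried motifs of stimulus-driven transcription. RefSeq promoter windows of GRCm38.p6 (250 bases before to 50 after the start) were present for 7 of the 8 genes, all but Zfp36l2, and were searched on both strands. The Zfp36 window held the CArG box, the site read by serum response factor, 58 to 49 bases before the start, and 1.63% of 32851 promoter windows held one. The Btg2 window held the palindromic cyclic AMP response element TGACGTCA 166 to 159 bases before the start, as did 1.79% of windows. These stretches are shown because both genes rise fast on stimulation, with the motif in capitals.
Zfp36 promoter, chr7:28379267-28379296, minus strand: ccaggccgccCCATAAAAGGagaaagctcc
Btg2 promoter, chr1:134079303-134079332, minus strand: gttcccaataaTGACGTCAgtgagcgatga
The AP-1-like letters TGANTCA were found in the Rc3h1 and Zfp36l1 windows (7.81% of windows) and a TATAAA box in the Btg1 and Zfp36l1 windows (13.6%). The Zc3h12a and Rc3h2 windows held none of these motifs.

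The libraries held between 17549429 and 25031862 counts, and the 8 genes together took 0.369% to 0.467% of them in ConA+SIM and 0.526% to 0.594% in ConA, without scaling. After TMM scaling their summed level was 5093, 4713 and 3944 CPM in ConA+SIM, against 5597, 4860 and 5410 CPM in ConA, and the groups overlapped. Counts of a single member in a library ran from 512 to 45703, so counting error was small beside the differences between replicates. Levels are given in CPM, each gene's counts divided by its library's TMM-adjusted total, and differences as log2 fold changes of ConA+SIM over ConA with edgeR's quasi-likelihood test. Over all 10509 tested genes 0.542% passed at an adjusted p under 0.05, all of them higher in ConA+SIM. Of the 8 members 0 passed, 1 had an unadjusted p under 0.05 (8.85% of tested genes, 3.54% with a lower value), and 4 had a lower and 4 a higher estimate in ConA+SIM. ConA+SIM replicate 2 stood apart from the other libraries, with 18.4% of tested genes at 0 counts against 2.76% to 9.98% elsewhere. It gave the highest or the lowest of the 6 values for 5 of the 8 genes, and results are given without it where it matters.

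Levels of different genes were compared per kilobase of the longest coding transcript, which need not be the one these cells use. The Zfp36 transcript, of 2790 nt, is longer than its RefSeq gene of 2445 bases. The level of Zfp36 may thus be understated, and its rank against Btg1 in ConA+SIM is uncertain. With these lengths Btg1 had the highest level in ConA+SIM, at 345 ± 48.9 CPM per kb, against 326 ± 34.8 CPM per kb in ConA (SD, n = 3 each). Zfp36 followed at 304 ± 75.7 CPM per kb in ConA+SIM and led in ConA at 473 ± 50.9 CPM per kb. Zfp36l2 stood at 282 ± 53.4 CPM per kb in ConA+SIM and 368 ± 44.3 CPM per kb in ConA. In ConA+SIM the level of Zfp36 lay within 1 SD of Zfp36 from both others, while Btg1 exceeded Zfp36l2 by more than either SD, and in ConA the level of Zfp36 exceeded that of Zfp36l2 by more than either SD. Zfp36l1, at 131 ± 25.3 CPM per kb in ConA+SIM and 147 ± 37.4 CPM per kb in ConA, could not be separated from Btg2, at 129 ± 52.6 and 128 ± 18.2 CPM per kb. The stem-loop regulators were far lower, with Zc3h12a at 30.3 ± 11.3 CPM per kb in ConA+SIM and 25.5 ± 9.02 CPM per kb in ConA. Rc3h1 stood at 12.5 ± 3.78 CPM per kb in ConA+SIM and 10.9 ± 2.13 CPM per kb in ConA, and Rc3h2 was lowest at 5.24 ± 2.00 and 7.08 ± 1.35 CPM per kb.

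**Figure D1:**
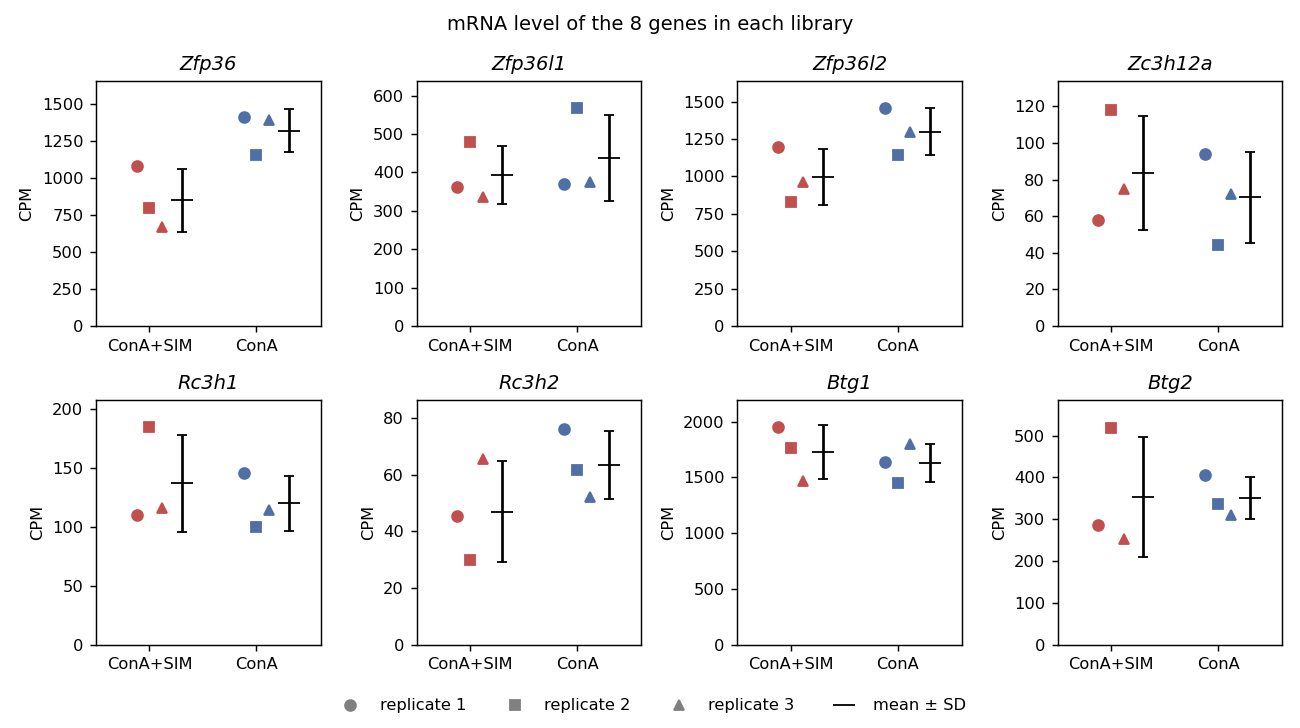
CPM of each gene (y axis, from 0) in the 3 ConA+SIM libraries (red, left) and the 3 ConA libraries (blue, right), with the symbol giving the replicate and bars the mean ± SD. Only the panel of Zfp36 shows groups that do not overlap, with ConA+SIM values of 668 to 1080 CPM and ConA values of 1155 to 1409 CPM.

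Zfp36 had the clearest difference of the 8. It stood at 1080, 794 and 668 CPM in ConA+SIM replicates 1 to 3, against 1409, 1155 and 1393 CPM in ConA replicates 1 to 3. Every ConA+SIM library lay below every ConA library, as was the case in 8.57% of tested genes, with separation in either direction in 17.8%. The log2 fold change was -0.64 ± 0.21 (SE), a ratio of 0.643, with an unadjusted p of 0.0129 in the edgeR quasi-likelihood test. It did not pass when adjusted over all genes by Benjamini and Hochberg (edgeR adjusted p = 0.377), ranking 358 of 10509 by p. DESeq2 called it lower (log2 fold change -0.65, adjusted p = 0.0108), which called 11.6% of the genes to which it gave an adjusted p, 4.15% as lower. The difference stayed negative in all 17 alternative fits, from -0.85 without ConA+SIM replicate 1 to -0.23 with offsets for transcript length and GC content. In bulk samples like these, fewer cells of a type with the message and less of it in each cell cannot be told apart. The gene spans 28376784 to 28379228 on chromosome 7 (GRCm38.p6), and no other RefSeq gene overlaps it.

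Zfp36l2, which like Zfp36 restrains cytokine messages in T cells, had the next smallest p of the 8. It stood at 1199, 826 and 964 CPM in ConA+SIM, against 1456, 1143 and 1294 CPM in ConA, so that the groups overlapped only through ConA+SIM replicate 1 and ConA replicate 2. The log2 fold change was -0.38 ± 0.19, and it did not pass (edgeR adjusted p = 0.652). With length and GC offsets the value was 0.14, the single alternative in which it was not negative. The gene lies on chromosome 17, 84183924 to 84187947.

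Zfp36l1, the third gene of the family, did not separate the groups. It stood at 362, 479 and 337 CPM in ConA+SIM, against 371, 568 and 376 CPM in ConA. Replicate 2 was the highest library in each group, and the log2 fold change was -0.16 ± 0.25 (edgeR adjusted p = 0.999). Markers of sinusoidal endothelium were at 416.5 to 889 CPM in sum in ConA+SIM and at 462 to 2593 CPM in ConA, with the highest sum in ConA replicate 2, the library in which Zfp36l1 was highest. All 12 of 12 markers had counts and a log2 fold change below 0, with a median of -0.93, and 0 were called. The part of these cells in the Zfp36l1 level was not tested. Without ConA replicate 2 the log2 fold change of Zfp36l1 was 0.06, and without ConA+SIM replicate 2 it was -0.32. The gene lies on chromosome 12, 80107760 to 80113013, and RefSeq also lists a pseudogene, Zfp36l1-ps, whose reads could be shared with it.

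Ratios within a library do not depend on scaling, and they show how the family members shifted against each other. The log2 ratio of Zfp36l2 to Zfp36 counts was 0.15, 0.06 and 0.53 in ConA+SIM, against 0.05, -0.01 and -0.11 in ConA. Counts of Zfp36l2 thus exceeded those of Zfp36 in all 3 ConA+SIM libraries, and the mean difference between groups was 0.27, without overlap. Without ConA+SIM replicate 3 it was 0.13, and it ran from 0.23 to 0.36 when any other library was left out. The exact two-sided permutation test gave p = 0.1, the smallest that 3 against 3 libraries allow, and 0.5 after Benjamini-Hochberg adjustment over the 5 pairs compared. The log2 ratio of Zfp36l1 to Zfp36 averaged -1.10 ± 0.43 in ConA+SIM and -1.61 ± 0.51 in ConA (SD, n = 3 each; exact permutation p = 0.2), with overlapping groups. The ratio of Zfp36l2 to Zfp36l1 averaged 1.34 ± 0.49 in ConA+SIM and 1.59 ± 0.51 in ConA (n = 3 each; exact permutation p = 0.5).

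**Figure D2:**
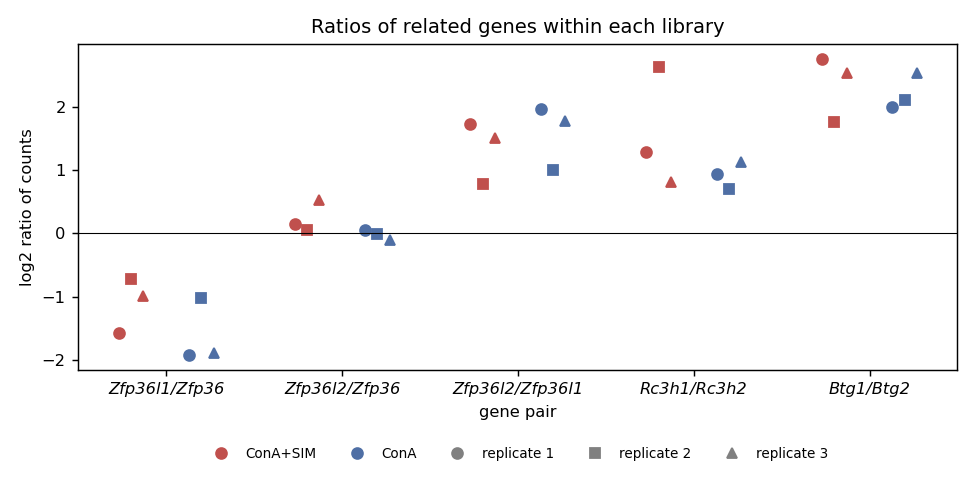
Log2 ratio of the counts of 2 related genes in the same library (y axis) for 5 gene pairs, with ConA+SIM in red at the left and ConA in blue at the right of each pair and the symbol giving the replicate. Only Zfp36l2/Zfp36 has groups that do not overlap, and the Rc3h1/Rc3h2 ratio of ConA+SIM replicate 2, 2.63, lies far above the other 5 libraries.

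Zc3h12a, the endonuclease Regnase-1, varied most between libraries. It stood at 57.7, 118 and 75.0 CPM in ConA+SIM, against 94.0, 44.5 and 72.3 CPM in ConA. The highest value was 2.65 times the lowest, and the extremes were the replicate 2 libraries of the groups. The log2 fold change was 0.25 ± 0.44 and did not pass (edgeR adjusted p = 0.999), and without ConA+SIM replicate 2 it was -0.08. The gene lies on chromosome 4, 125118414 to 125127881.

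Rc3h1, the gene of Roquin-1, stood at 110, 185 and 116 CPM in ConA+SIM, against 146, 100.1 and 115 CPM in ConA. The 2 other ConA+SIM libraries lay within the range of ConA, and replicate 2 lay above it. The log2 fold change was 0.19 ± 0.32 (edgeR adjusted p = 0.999), and without that library -0.09. Rc3h2, its partly redundant paralog, went the other way, at 45.3, 29.9 and 65.6 CPM in ConA+SIM, against 76.3, 61.5 and 52.3 CPM in ConA. ConA+SIM replicate 2 had the lowest Rc3h2 value and the highest Rc3h1 value of the 6 libraries. The Rc3h2 log2 fold change was -0.43 ± 0.46 (edgeR adjusted p = 0.999) and -0.19 without ConA+SIM replicate 2. The Rc3h1 to Rc3h2 log2 ratio was 1.28, 2.63 and 0.82 in ConA+SIM, against 0.94, 0.70 and 1.13 in ConA, with overlapping groups (exact permutation p = 0.3). The mean difference of 0.65 became 0.13 without ConA+SIM replicate 2 and was 1.03 without ConA+SIM replicate 3. Rc3h1 lies on chromosome 1, 160906411 to 160974976, and Rc3h2 on chromosome 2, 37368861 to 37424370, with the small nucleolar RNA gene Snord90 inside its span.

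Btg1 was the steadiest of the 8. It stood at 1952, 1763 and 1466 CPM in ConA+SIM, against 1638, 1450 and 1798 CPM in ConA, and the highest value was 1.35 times the lowest. The log2 fold change was 0.08 ± 0.17 (edgeR adjusted p = 0.999), with values between -0.01 and 0.50 over the alternatives. Btg2, its paralog, averaged 353 ± 144 CPM in ConA+SIM and 351 ± 50.0 CPM in ConA (SD, n = 3 each). Its values were 287, 518 and 253 CPM in ConA+SIM, against 407, 337 and 309.9 CPM in ConA. The 2 other ConA+SIM libraries thus lay below all ConA libraries while replicate 2 lay above all of them. The log2 fold change of Btg2 was 0.01 ± 0.29 with all libraries and -0.38 without ConA+SIM replicate 2 (edgeR adjusted p = 0.725). The Btg1 to Btg2 log2 ratio averaged 2.36 ± 0.52 in ConA+SIM and 2.22 ± 0.28 in ConA (n = 3 each; exact permutation p = 0.8). Btg1 lies on chromosome 10, 96617001 to 96622813, and Btg2 on chromosome 1, 134074865 to 134079155.

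**Figure D3:**
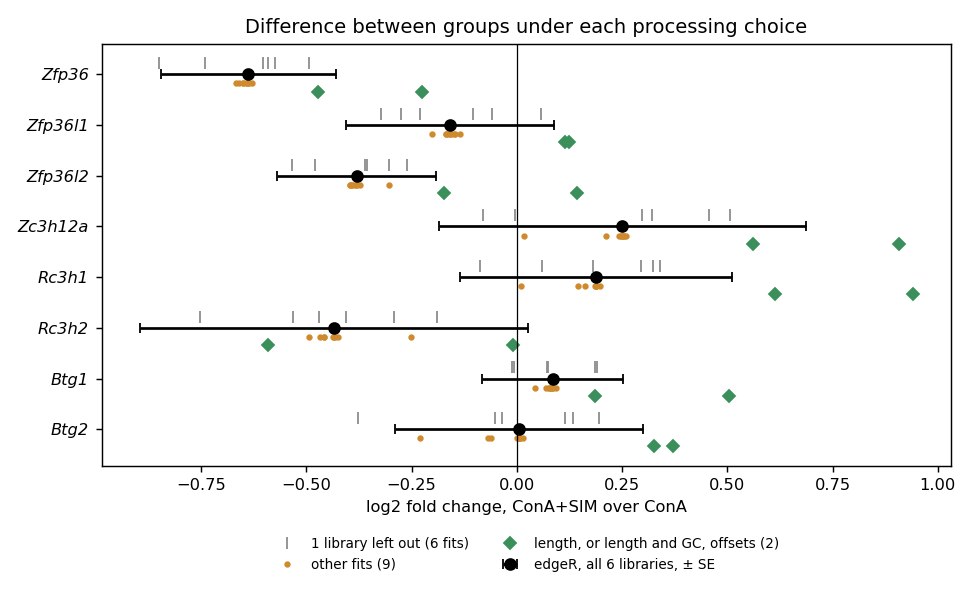
Log2 fold change of ConA+SIM over ConA (x axis) for each gene, with the edgeR estimate from all 6 libraries ± SE in black, fits without 1 library as grey ticks, other fits as orange points and the fits with transcript length, or length and GC, offsets as green diamonds. Zfp36 lies below 0 in every fit shown, from -0.85 to -0.23, whereas Btg2 falls on either side of 0.

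The profiles of the members across the 6 libraries were compared pair by pair. The closest pair was Rc3h1 and Btg2, whose log2 CPM, centred on each gene's mean, differed by a root mean square of 0.18, both with a peak in ConA+SIM replicate 2. Zfp36 and Zfp36l2 followed at 0.20 and Zc3h12a and Rc3h1 at 0.20. The most distant pair was Zc3h12a and Rc3h2 at 0.74. Paralogs were not always close, since Rc3h1 and Rc3h2 differed by 0.65 and Btg1 and Btg2 by 0.35. These distances describe 6 libraries that also share depth and composition effects, and carry no test.

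**Figure D4:**
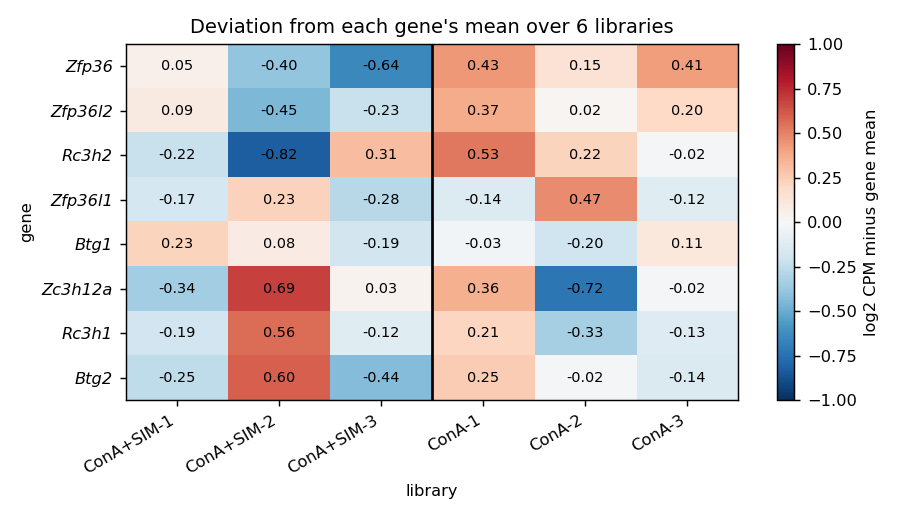
Log2 CPM minus the gene's mean over 6 libraries (colour and printed value) for each gene (rows) in each library (columns), with ConA+SIM left of the line and ConA right of it. Zfp36 and Zfp36l2 are below their mean in ConA+SIM replicates 2 and 3, and Zc3h12a, Rc3h1 and Btg2 peak in ConA+SIM replicate 2.

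Among 8661 other tested genes with a mean of at least 10 CPM, the gene with the profile nearest to Btg2 was Fosb, an immediate early AP-1 gene, at a root mean square difference of 0.07. Fosb stood at 359, 633 and 305 CPM in ConA+SIM, against 477, 398 and 420.5 CPM in ConA, and so shared the peak of Btg2 in ConA+SIM replicate 2. The nearest gene to Zfp36 was Csnk1d, a casein kinase gene, at 146 ± 44.7 CPM in ConA+SIM and 220.3 ± 15.2 CPM in ConA (root mean square difference 0.07). The nearest to Zfp36l2 was Raver1 (0.08), to Zfp36l1 the utrophin gene Utrn (0.08) and to Zc3h12a the lipid kinase gene Pip4k2c (0.12). The nearest to Rc3h1 was Elf1, an ETS family transcription factor gene (0.09), to Rc3h2 the ubiquitin ligase gene Herc1 (0.07) and to Btg1 the integrin gene Itgb7 (0.06). None of these 8 genes passed the test, with the smallest adjusted p, 0.626 by edgeR, for Csnk1d.

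Of 48 tested genes of the deadenylation, decapping and exosome machinery, edgeR called 0 in either direction, beside 0.542% of all tested genes. At an unadjusted edgeR p under 0.05 there were 5, beside 8.85% of all tested genes. DESeq2 called 1 decapping and 1 exosome gene, beside 11.6% of all genes to which it gave an adjusted p. With quality weights limma-voom called 1 decapping gene. Of 18 genes of CCR4-NOT and other deadenylases 0 passed, 11 lay above 0 and 7 below it, and the median log2 fold change was 0.25, against -0.04 over all tested genes. Cnot4, a ubiquitin ligase bound to the complex, stood at 43.6, 119 and 45.0 CPM in ConA+SIM, against 37.7, 22.4 and 15.7 CPM in ConA (log2 fold change 1.45 ± 0.61, edgeR adjusted p = 0.534). Cnot7, the deadenylase subunit to which Btg1 and Btg2 bind, stood at 104, 138 and 86.7 CPM in ConA+SIM, against 58.5, 104 and 58.7 CPM in ConA (0.57 ± 0.38, edgeR adjusted p = 0.857). Btg3, another BTG family gene, had a log2 fold change of 1.40 ± 0.74 (edgeR adjusted p = 0.691).

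Of 15 tested genes of decapping and 5'-to-3' decay 0 passed, with 8 higher, 7 lower and a median log2 fold change of 0.02. Lsm3, a subunit of the ring that binds shortened tails and also of the spliceosome, had the smallest p in the 7 lists of related genes, the cell markers aside. It stood at 194, 95.5 and 151 CPM in ConA+SIM, against 56.8, 60.0 and 38.6 CPM in ConA, without overlap (log2 fold change 1.50 ± 0.38, edgeR adjusted p = 0.224). Groups likewise did not overlap in 17.8% of all tested genes. Lsm5, of the same ring, had a log2 fold change of 1.64 ± 0.67 (edgeR adjusted p = 0.513) and Lsm4 one of -2.25 ± 1.54 (adjusted p = 0.867), so the values of this ring lay on both sides of 0. Of 15 genes of the exosome and its SKI helper 0 passed, with 8 higher, 7 lower and a median of 0.15 that was negative in each of the 6 fits without 1 library. Wdr61, a SKI subunit, stood at 70.7, 115 and 76.6 CPM in ConA+SIM, against 49.1, 12.2 and 16.1 CPM in ConA (1.76 ± 0.61, edgeR adjusted p = 0.392). The exosome nuclease gene Dis3 had lower values in each ConA+SIM library than in any ConA library, as did 8.57% of tested genes (-1.64 ± 0.73, edgeR adjusted p = 0.563). Exosc8 had a log2 fold change of 0.80 ± 0.48 (edgeR adjusted p = 0.792).

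Partners and regulators of the members, such as the protease gene Malt1 that cuts Regnase-1 and the Roquins, gave 0 calls by edgeR among 19 tested genes. At an unadjusted edgeR p under 0.05 there were 0 (8.85% over all genes). DESeq2 called 0, beside 11.6% of all genes to which it gave an adjusted p. In this list 6 genes had higher and 13 lower values, with a median log2 fold change of -0.24. Upf1, the helicase with which Regnase-1 works, had a log2 fold change of -0.97 ± 0.75 (edgeR adjusted p = 0.935). Its level in ConA+SIM replicate 2 was 6.36 CPM, against 71.1 and 85.7 CPM in the other libraries of that group. Ythdf2, a reader of methylated adenosine that brings messages to decay, had one of 0.80 ± 0.49 (edgeR adjusted p = 0.805), and the kinase gene Ikbkb one of -0.47 ± 0.34 (adjusted p = 0.894).

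Messages reported as targets of these regulators gave 0 calls by edgeR among 23 tested genes (0.542% over all genes). At an unadjusted edgeR p under 0.05 there were 5 (8.85% over all genes). DESeq2 called 3, beside 11.6% of all genes to which it gave an adjusted p. Of the 23 genes 14 were higher and 9 lower by edgeR, with a median log2 fold change of 0.09. Ctla4, an inhibitory receptor gene, stood at 465, 348 and 518 CPM in ConA+SIM, against 345, 224 and 257 CPM in ConA (0.69 ± 0.25, edgeR adjusted p = 0.416). The groups did not overlap, although ConA+SIM replicate 2 and ConA replicate 1 were nearly equal. Such separation was found in 3 of the 23 genes and in 17.8% of all tested genes. Tfrc, the transferrin receptor gene and a Regnase-1 target, averaged 318 ± 80.6 CPM in ConA+SIM and 163 ± 65.8 CPM in ConA (SD, n = 3 each). Its log2 fold change was 0.97 ± 0.33 (edgeR adjusted p = 0.392). Il10, an anti-inflammatory cytokine gene, averaged 198 ± 65.5 CPM in ConA+SIM and 96.2 ± 37.5 CPM in ConA (log2 fold change 1.04 ± 0.39, edgeR adjusted p = 0.433). Tnf, the best known message of tristetraprolin, could not be followed in its own row, which held 0 counts in every library. Other rows of the table carry copies of the symbol, and their counts are not given here.

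AU-rich elements were also set against the change of every tested gene, as a description without a test. The 173 genes with at least 2 TTATTTATT matches had a median log2 fold change of -0.01, the 629 with 1 match -0.08 and the 9168 with none -0.04. The medians differed more with length offsets, at 0.31, 0.27 and 0.08, and transcripts with at least 2 matches were longer, with a median of 4698 nt against 3046 nt for those with none. With length and GC offsets the medians were 0.13, 0.20 and 0.09.

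**Figure D5:**
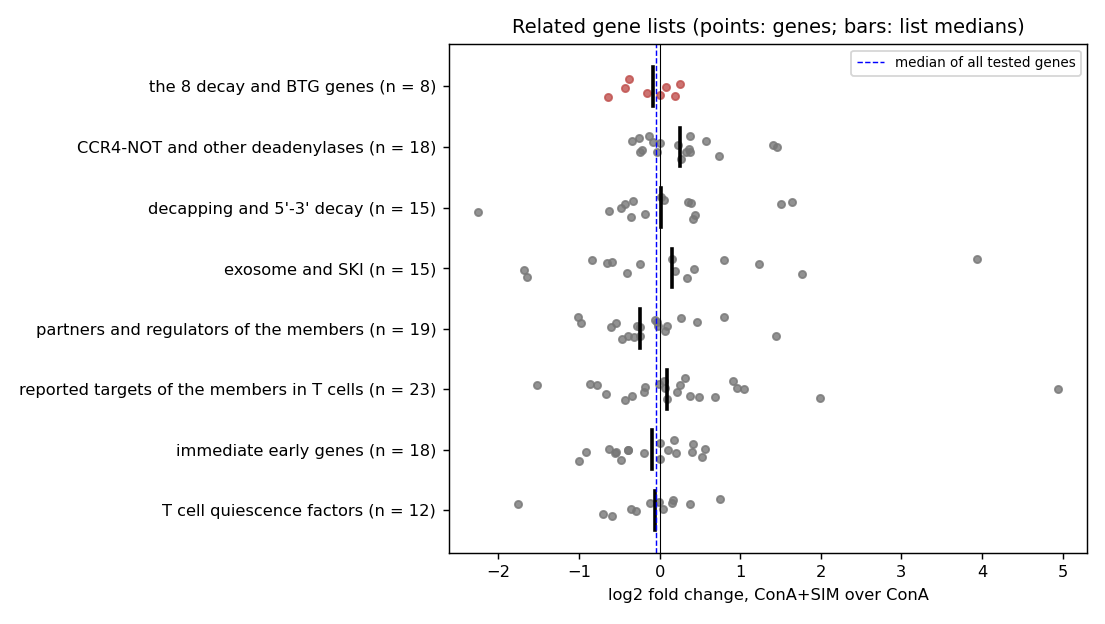
Log2 fold change of ConA+SIM over ConA (x axis) for the tested genes of each list (points), with list medians as black bars and the median of all tested genes, -0.04, as a dashed line. List medians lie between -0.24 and 0.25, and points spread on both sides of 0 in every list.

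Immediate early genes, the class to which Zfp36 and Btg2 belong, gave 0 calls by edgeR among 18 tested (0.542% over all genes). At an unadjusted edgeR p under 0.05 there were 2 (8.85% over all genes). DESeq2 called 2, beside 11.6% of all genes to which it gave an adjusted p. Of the 18 genes 9 were higher and 9 lower by edgeR, and the median log2 fold change was -0.10. It was -0.31 without ConA+SIM replicate 2 and 0.05 without ConA+SIM replicate 3. Egr1 stood at 158, 225 and 189 CPM in ConA+SIM, against 294, 434 and 347 CPM in ConA (-0.91 ± 0.25, edgeR adjusted p = 0.258). Like Zfp36 it had no overlap between groups, as was the case for 3 of the 18 genes and for 17.8% of all tested genes. Junb went the other way without overlap, at 1577, 1962 and 1198 CPM in ConA+SIM, against 1065, 994 and 1156 CPM in ConA (0.56 ± 0.20, edgeR adjusted p = 0.404). Jun had a log2 fold change of -0.40 ± 0.20 (edgeR adjusted p = 0.668). Values of the class thus lay on both sides of 0.

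Of 12 genes tied to T cell quiescence, the state that Btg1 and Btg2 help to keep, 0 passed by edgeR (0.542% over all genes). At an unadjusted edgeR p under 0.05 there were 2 (8.85% over all genes). DESeq2 called 2, beside 11.6% of all genes to which it gave an adjusted p. Of the 12 genes 5 were higher and 7 lower by edgeR, with a median log2 fold change of -0.06. Tsc2, a brake on mTOR signalling, stood at 23.2, 12.02 and 36.9 CPM in ConA+SIM, against 91.1, 91.4 and 61.5 CPM in ConA (-1.76 ± 0.54, edgeR adjusted p = 0.335). Tcf7, a factor of naive and memory T cells, averaged 687 ± 190.3 CPM in ConA+SIM and 1120 ± 313 CPM in ConA (-0.70 ± 0.26, edgeR adjusted p = 0.436). Klf2 had a log2 fold change of -0.35 ± 0.22 (edgeR adjusted p = 0.809).

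Marker lists of other cells gave context for the Zfp36 difference. T cell markers, all 8 with counts, summed to 3386 to 3547 CPM in ConA+SIM and 2193 to 3452 CPM in ConA. Of these 8 genes 4 had higher and 4 lower estimates in ConA+SIM. Their median log2 fold change was 0.05, with 0 called by edgeR. Cd3d, Cd3g, Cd247 and Lck were the higher ones, and Cd3e, Cd4, Cd2 and Cd5 the lower. NK cell markers, of which 7 of 8 had counts and the defining gene Ncr1 was at 0 in every library, summed to 739 to 829 CPM in ConA+SIM and 298 to 366 CPM in ConA. The groups separated for Gzma, Klrd1, Nkg7 and Klrb1c and overlapped for Klrk1, Eomes and Prf1, beside separation in 17.8% of all tested genes. For Nkg7 the nearest values were 131 CPM in ConA+SIM replicate 1 and 128 CPM in ConA replicate 1. All 7 tested genes of the list had estimates above 0. Erythroid and platelet markers, with Ppbp at 0, summed to 229 to 343 CPM in ConA+SIM and 44.3 to 115 CPM in ConA. Of the 5 tested genes of this list edgeR called 1, the haemoglobin gene Hbb-bs, beside 0.542% of all tested genes. Hbb-bs stood at 152, 234 and 127 CPM in ConA+SIM, against 45.7, 44.2 and 32.5 CPM in ConA (log2 fold change 2.07 ± 0.36, edgeR adjusted p = 0.0485). The NK and erythroid sums separated the groups as Zfp36 did, in the opposite direction, and their part in its difference was not tested. Macrophage and monocyte markers, 15 of 15 with counts, overlapped in sum, at 1040 to 2568 CPM in ConA+SIM and 1553 to 3224 CPM in ConA, but most of that sum came from Lyz2, Ly6c2 and Ccr2. Of the 12 tested genes of the list 9 had lower and 3 higher estimates in ConA+SIM. Their median log2 fold change was -0.97, with 0 called by edgeR. Cd68, a macrophage gene, stood at 21.6, 0 and 31.5 CPM in ConA+SIM, against 81.7, 93.0 and 66.3 CPM in ConA. C1qa and Itgam also had lower values in every ConA+SIM library than in any ConA library, averaging 19.6 and 41.4 CPM in ConA+SIM against 48.1 and 92.2 CPM in ConA, whereas Ly6c2 had higher ones. Cd68, C1qa and Itgam thus differed in the direction of Zfp36, with groups that did not overlap, as was the case with lower values in 8.57% of tested genes. For the remaining tested genes of the list, Clec4f, Adgre1, Csf1r, Lyz2, C1qb, C1qc, Cd5l and Ccr2, the groups overlapped. Cd5l and Ccr2 had higher estimates in ConA+SIM, as Ly6c2 did. Sinusoidal endothelium markers also had lower estimates in ConA+SIM, in 12 of 12 tested genes, with a median log2 fold change of -0.93. Their sums overlapped and 0 were called. The part of macrophages and of endothelium in the Zfp36 difference was not tested. Neutrophil markers summed to 583 to 949 CPM in ConA+SIM and 276 to 480.0 CPM in ConA, without overlap, with Ly6g at 0 in every library. The separation came from S100a8 and S100a9, whereas Csf3r, Retnlg and Mmp8 had lower means in ConA+SIM and the median log2 fold change of the 6 tested genes was 0.06. The part of these cells was likewise not tested. Hepatocyte markers summed to 274.5 to 371 CPM in ConA+SIM and 292 to 352 CPM in ConA. Of the 7 tested genes of this list 5 had higher and 2 lower estimates in ConA+SIM. Their median log2 fold change was 1.30, with 0 called by edgeR. Ass1, with the highest mean of the list in each group, averaged 121 CPM in ConA+SIM and 196 CPM in ConA. B and plasma cell markers summed to 496 to 929 CPM in ConA+SIM and 114 to 1272 CPM in ConA, and CD8 markers to 26.3 to 54.1 CPM in ConA+SIM and 4.72 to 33.1 CPM in ConA. Stellate cell markers reached at most 11.5 CPM in a library.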

How the data were processed

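Per the labels' protocols, liver CD4+ T cells were sorted by flow cytometry before Illumina library preparation. HISAT2 2.1.0 and GRCm38 are named per the submitters' processing notes. The sources used here do not give the counter, annotation, strand setting or handling of multiply matching reads. The authors deposited raw counts per gene, whole numbers without normalization, with 1 column per sample named by its title.

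From these counts, genes were kept by filterByExpr, scaled by TMM and tested with edgeR 4.0.16 (quasi-likelihood, robust, no covariates, R 4.3.3), with Benjamini-Hochberg adjustment over 10509 genes and a threshold of 0.05. A fold's SE is its size over the root of the F statistic. Alternatives were RLE scaling, other low-count filters, DESeq2 1.42.0, limma-voom (limma 3.58.1), the replicate block, leaving out each library, length and GC offsets (95.5% of tested genes had a length), leaving out ribosomal protein genes, and summing copy rows. Ratios were taken with 0.5 added to each count and tested exactly in scipy 1.17.1. The procedure was tested on simulated counts with a much smaller spread between libraries than these data have. That test does not show how the procedure performs at the spread of these data.

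The members and lists were chosen with earlier results of these data known. Named list genes are those past the threshold or, where a list had none, the 3 with the smallest p; nearest-profile genes follow their own rule. Tnf, Malt1, Icos, Tnfrsf4, Cnot8 and single marker genes are named besides, the markers after their values were seen. The labels do not say that libraries came from separate mice, so p-values reflect the spread of these samples only, which may be technical. Libraries of a group differed beyond sampling noise in every pair, with a chi-square 138 to 288 times its degrees of freedom.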

Additional observations from a re-analysis of the deposited data

How the results depend on the processing

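Every alternative gave 0 calls among the 8 genes except DESeq2, which called 1, Zfp36. Zfp36 was negative in all 17 alternatives and Rc3h2 likewise, though Rc3h2 came to -0.01 with length offsets. The replicate numbers did not pair the libraries, since deviations from the group means correlated at 0.011, 0.0088 and 0.033 between same-numbered libraries. With the number as a replicate block 0 genes were called in all, Btg2 stood at -0.062, and the medians of the exosome list and of the reported targets were -0.23 and 0.36. The mean ratio differences are the same with and without pairing by arithmetic.

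Calls over all genes, 57 higher and 0 lower, came to 356 and 199 with DESeq2, 120 and 8 with limma-voom and 127 and 10 with quality weights. There was 1 lower call with RLE scaling and 1 without a low-count filter. With length offsets, with length and GC offsets and with ribosomal protein genes left out there were 0 higher calls, and leaving out a library gave 0 to 3.

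Leaving out 1 library gave log2 fold changes from -0.32 to 0.058 for Zfp36l1, -0.081 to 0.51 for Zc3h12a, -0.087 to 0.34 for Rc3h1, -0.012 to 0.19 for Btg1 and -0.38 to 0.20 for Btg2. Library-wise ratio differences ran from -0.53 to 0.034 for Zfp36l2/Zfp36l1, -0.065 to 0.43 for Btg1/Btg2, 0.33 to 0.81 for Zfp36l1/Zfp36, 0.13 to 0.36 for Zfp36l2/Zfp36 and 0.13 to 1.03 for Rc3h1/Rc3h2. List medians ran from 0.063 to 0.34 for deadenylases, -0.23 to 0.16 for decapping, -0.30 to -0.021 for the exosome, -0.32 to -0.092 for partners, -0.075 to 0.33 for reported targets, -0.31 to 0.048 for immediate early genes and -0.31 to 0.12 for quiescence factors.

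Length offsets moved the median of all genes by 0.14, from -0.04 to 0.10. They put Zfp36l1 at 0.11 and the medians of deadenylases at 0.58, decapping at 0.23, partners at 0.12, reported targets at 0.30 and quiescence factors at 0.35. Length and GC offsets put Zfp36l1 at 0.12, Zfp36l2 at 0.14, partners at 0.16, reported targets at 0.25, immediate early genes at 0.21 and quiescence factors at 0.19. Relative to the median of all genes, Zfp36 was at -0.57 with length offsets and -0.32 with GC as well, against -0.60 without. With limma-voom Btg2 was at -0.069, the exosome median at -0.21 and that of reported targets at 0.34, and with quality weights Btg2 was at -0.23. The exosome median was -0.24 with copy rows summed. DESeq2 called 1 decapping, 1 exosome, 3 reported target, 2 immediate early and 2 quiescence genes. Over all genes to which it gave an adjusted p it called 11.6%. Quality weights called 1 decapping gene. The cause was not tested. At the counts of these genes the spread between libraries, not depth, limits precision.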
